A study of Drosophila melanogaster with 19 samples.

Results

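The lipid synthesis and storage genes described here were the 8 genes *SREBP*, *FASN1*, *ACC*, *Desat1*, *AcCoAS*, *mdy*, *Lsd-2* and *bmm*, listed by FlyBase symbol, out of 13929 genes in the deposited tables. The list was chosen by measured values of the same libraries, namely that *FASN1* and *SREBP* leaned upward at day 40 against day 30. The comparison of day 40 with day 30 is therefore given as a description with no test, and any other comparison that uses day 30 or day 40 libraries shares samples with that choice. Matching on the symbol placed all 8 genes in both tables.

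Nuclear RNA was sequenced from outer photoreceptors of male *Drosophila melanogaster*, to follow how gene expression in these cells changes with age. Every group carried the same genotype, with *UAS-GFP-Msp300KASH* at attP2 and *rh1-GAL4* on the third chromosome, in a *w* and *ry[506]* background. Rh1-Gal4 is active in the outer photoreceptors (R1 to R6), where it drives a green fluorescent protein fused to a KASH domain that sits on the outer nuclear membrane, so that nuclei can be pulled out of a lysate with an antibody. Nuclei of R7, R8 and of the surrounding glia and pigment cells do not carry the tag, and each library was made from a pool of flies. The ages after eclosion were day 20 (D20), day 30 (D30), day 40 (D40), day 50 (D50) and day 60 (D60), with 3 libraries each, from flies raised in a 12:12 hour light:dark cycle at 25 °C and collected at Zeitgeber time (ZT) 6. A further 2 libraries came from flies labelled DD (constant darkness) and 2 from flies labelled LD (light:dark). The sample titles give no age for DD and LD, and although headings of their count columns read day 10, their age is uncertain.

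Fatty acids are built from acetyl-CoA, which AcCoAS makes from acetate. ACC turns acetyl-CoA into malonyl-CoA, FASN1, the fatty acid synthase, extends the chain, and Desat1 introduces a double bond into the finished fatty acyl-CoA. SREBP is a transcription factor made as a precursor in the endoplasmic reticulum membrane and released by proteases, and in flies it drives genes of fatty acid synthesis. For storage, the product of *mdy* is the diacylglycerol acyltransferase that completes triacylglycerol, Lsd-2 is a perilipin that coats lipid droplets, and Brummer, the product of *bmm*, is the lipase that breaks triacylglycerol down. In the fly retina, lipid droplets can form in the pigment glia that surround the photoreceptors.

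The D30 to D60 libraries held 629634 to 864536 counts each, the D20 libraries 4525799 to 5100377, and the DD and LD libraries 16255052 to 19704692. All 15 outer photoreceptor markers were detected in every group. R7 and R8 markers summed to 555 to 585 CPM at D20, to 4630 to 5843 CPM in DD and to 3304 to 3382.5 CPM in LD. Cone and pigment cell markers summed to 265 to 315 CPM at D20, to 1375 to 1562 CPM in DD and to 1749 to 2326 CPM in LD. The part of these cells in level differences between D20 and DD or LD was not tested. Some libraries stood apart from the rest of their group. Across genes, which are no replicates of each other, D30 replicate 1 had a Pearson r of 0.96 with each of the other D30 libraries, against 0.97 between D30 replicates 2 and 3. The pair of DD libraries had an r of 0.92 and the LD pair one of 0.82. In LD, 2152 of 7742 genes that reached 50 counts in one library had no count in the other, and in DD this was so for 523 of 7499 genes. Each group pair below is therefore also given without these libraries where that changed a call.

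Levels are given as counts scaled to library size (CPM), with TMM factors within each of the 2 deposited tables. D30 to D60 share one table and D20, DD and LD the other, so levels can be set side by side within a table, and a level of one table is not on a tested scale with a level of the other. A gene was called when its Benjamini-Hochberg adjusted p-value from the edgeR quasi-likelihood test, taken over all genes tested, was under 0.05. Where the libraries of 2 groups are said not to overlap, the share of all genes that separated likewise was not counted. Such a statement only describes these libraries. Because these are bulk samples, more RNA per nucleus and a larger share of nuclei carrying that RNA cannot be told apart.

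*SREBP* (FBgn0261283) lies on the plus strand of chromosome 3L, from 19793935 to 19798979 in dm6 coordinates. One of its exons overlaps *CG14102* on the opposite strand by 5 bases, and the strand setting of the counting was not given in the sources used here. *SREBP* stood at 155, 181 and 194 CPM at D30, at 287, 296 and 270 CPM at D40, at 285, 217 and 218 CPM at D50, and at 337, 345 and 355 CPM at D60. The lowest level of the table was thus at D30, D60 lay above every younger age, and the ranges of D40 and D50 overlapped. In the other table, *SREBP* stood at 378, 364 and 348 CPM at D20, at 222 and 182 CPM in DD, and at 245 and 146 CPM in LD. D20 was above both DD and LD, whose ranges overlapped.

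*FASN1* (FBgn0283427) is on the plus strand of chromosome 2L, from 3056598 to 3068177, and overlaps no other annotated gene. Its level was 583, 425 and 405 CPM at D30, 1111, 841 and 898 CPM at D40, 1064, 763 and 474 CPM at D50, and 1176, 1224 and 1120 CPM at D60. D60 again lay above every younger age of the table. D50 was the most scattered group, with a coefficient of variation of 38.5%, against 4.41% at D60, and its range overlapped both D30 and D40. The D20 libraries held 918, 781 and 809 CPM, the DD libraries 504 and 515 CPM, and the LD libraries 691 and 669 CPM of *FASN1*.

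*ACC* (FBgn0033246) is on the minus strand of chromosome 2R, from 7974115 to 7991862, and shares its span, but no exon, with *Nup44A*. Its level was 341, 302 and 261 CPM at D30, 494, 431 and 488 CPM at D40, 548, 439 and 330 CPM at D50, and 483, 439 and 448 CPM at D60. D40 and D60 both lay above D30 and overlapped each other, and D50 replicate 3 fell within the range of D30. *ACC* stood at 358, 319 and 327 CPM at D20, at 309 and 363 CPM in DD, and at 484 and 571 CPM in LD, where both libraries were above those of DD and of D20.

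*Desat1* (FBgn0086687, chromosome 3R, plus strand, 12439600 to 12447616) stood at 107, 74.3 and 54.5 CPM at D30, at 96.3, 131 and 139 CPM at D40, at 132, 140 and 95.6 CPM at D50, and at 90.9, 106 and 91.8 CPM at D60. Its ranges overlapped at all neighbouring ages of the table. The D20 libraries held 118, 97.1 and 117 CPM of it. DD held 216 and 257 CPM and LD 191 and 258 CPM, so the DD and LD libraries overlapped and all 4 were above D20.

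The acetate-activating gene *AcCoAS* (FBgn0012034, chromosome 3L, minus strand, 21270722 to 21280243) stood at 111, 78.1 and 69.2 CPM at D30, at 88.0, 139 and 144 CPM at D40, at 146, 114.6 and 100.65 CPM at D50, and at 119, 106 and 99.97 CPM at D60. These ranges overlapped as well, with D30 replicate 1 the library that reached into the older ages. At D20 it had 83.5, 74.7 and 84.1 CPM. Its DD libraries had 73.8 and 86.7 CPM, between the 50.7 and 132 CPM of the LD libraries.

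Among the storage genes, *Lsd-2* (FBgn0030608, chromosome X, minus strand, 15069127 to 15076220) stood at 48.6, 44.8 and 44.2 CPM at D30, at 40.4, 80.7 and 82.1 CPM at D40, at 71.5, 70.7 and 68.8 CPM at D50, and at 71.5, 82.4 and 71.2 CPM at D60. D50 and D60 lay above D30 in every library, and D40 was split, with replicate 1 below all D30 libraries. *Lsd-2* had 55.0, 48.4 and 51.7 CPM at D20, 110 and 80.3 CPM in DD, and 97.0 and 162 CPM in LD. DD and LD overlapped, and both were above D20.

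The lipase gene *bmm* (FBgn0036449, chromosome 3L, minus strand, 14776496 to 14786412) had 21.9, 26.9 and 33.9 CPM at D30, 19.0, 48.0 and 47.1 CPM at D40, 37.5, 41.5 and 25.5 CPM at D50, and 61.1, 40.5 and 32.9 CPM at D60. As with *Lsd-2*, D40 replicate 1 was the lowest D40 library and lay below every D30 library. At D20 *bmm* had 30.0, 32.9 and 29.3 CPM, and it had 17.3 and 30.4 CPM in DD, both below the 39.7 and 40.7 CPM of LD.

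Diacylglycerol acyltransferase gene *mdy* (FBgn0004797, chromosome 2L, plus strand, 16816660 to 16826964) was close to the detection limit. It had 0 to 6 counts in each D30 to D60 library and 10 or 11 counts in each D20 library. It had 76 and 0 counts in the DD libraries and 386 and 14 counts in the LD libraries. The filter on low counts removed *mdy* from every comparison between ages, so 7 of the 8 genes were tested there, and differences of *mdy* with age were not detectable at this depth. Its 386 counts lay in a single LD library.

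**Figure D1:**
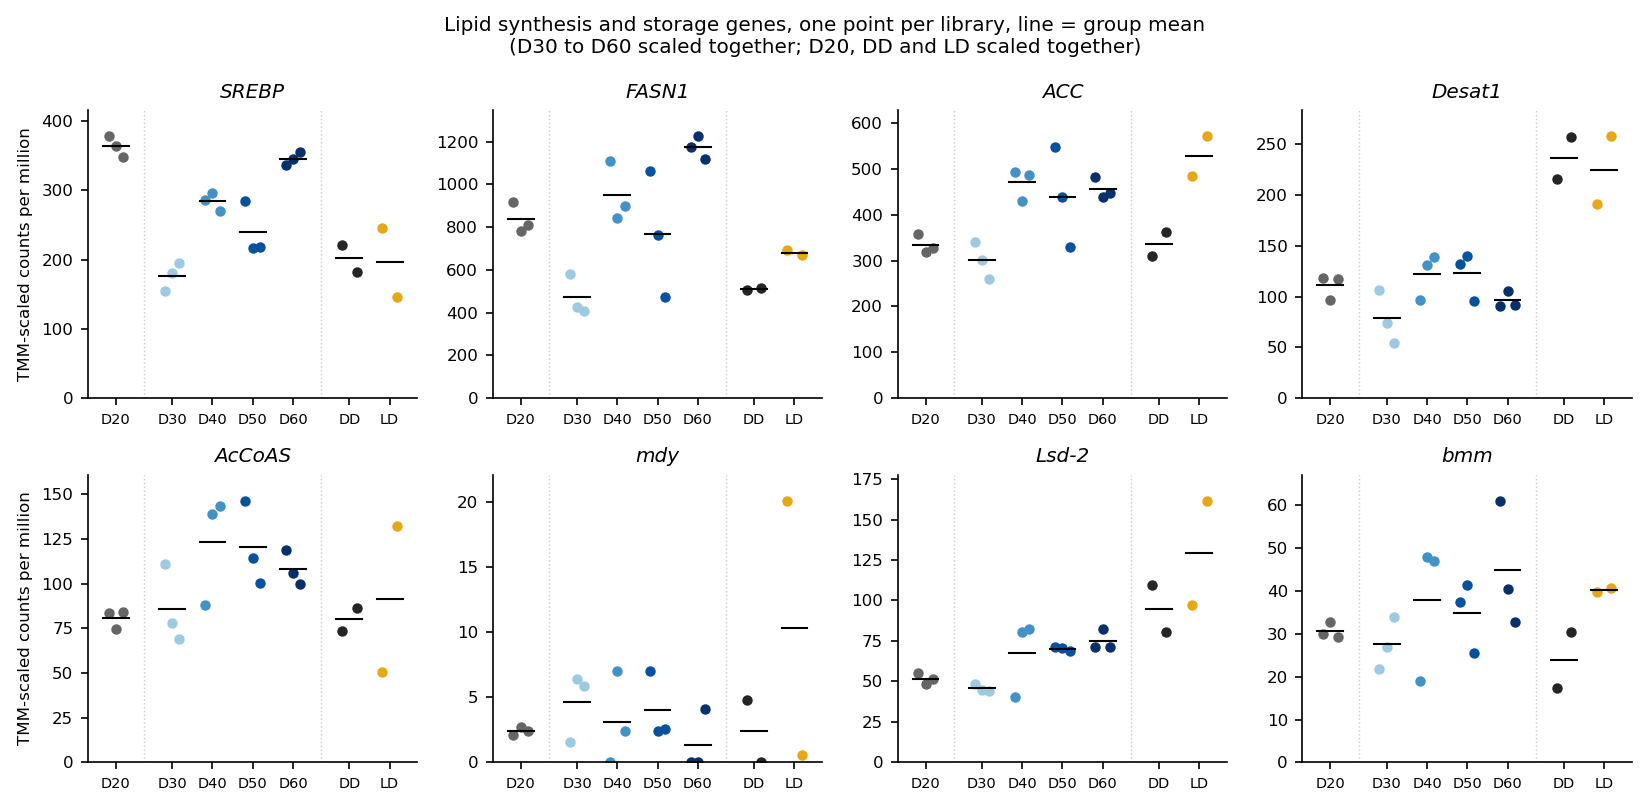
Level of each of the 8 lipid genes in TMM-scaled CPM, 1 point per library and a line at each group mean, with D20, D30, D40, D50, D60, DD and LD from left to right and dotted lines where the 2 separately scaled tables meet. *SREBP* and *FASN1* had their lowest mean at D30 and their highest at D60 within D30 to D60, *Desat1* was 191 to 258 CPM in DD and LD, and *mdy* passed 10 CPM in 1 LD library.

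Divided by the length of annotated exons, so that genes can be compared with each other, *FASN1* had the highest level at D60, at 134 ± 5.92 CPM per kilobase (SD, n = 3). *SREBP* followed at 85.2 ± 2.22, *ACC* at 50.4 ± 2.54, *Desat1* at 38.7 ± 3.39, *AcCoAS* at 30.1 ± 2.73, *bmm* at 18.4 ± 5.99, *Lsd-2* at 16.3 ± 1.38 and *mdy* at 0.509 ± 0.882 CPM per kilobase (SD, n = 3 each). The neighbours *bmm* and *Lsd-2* did not differ beyond their spread. At D30 the genes with the highest levels were *FASN1* at 53.9 ± 11.1, *SREBP* at 43.6 ± 4.92, *ACC* at 33.2 ± 4.46 and *Desat1* at 31.5 ± 10.6 CPM per kilobase (SD, n = 3 each). *FASN1* and *SREBP*, and likewise *ACC* and *Desat1*, were within 1 SD of each other at that age. The order differed in DD and LD. There the desaturase gene *Desat1* came first, at 94.9 ± 11.6 in DD and 90.3 ± 18.8 CPM per kilobase in LD, ahead of *FASN1* at 58.3 ± 0.888 in DD and 77.8 ± 1.79 in LD (SD, n = 2 each). In LD the gap between them was smaller than the SD of *Desat1*.

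**Figure D2:**
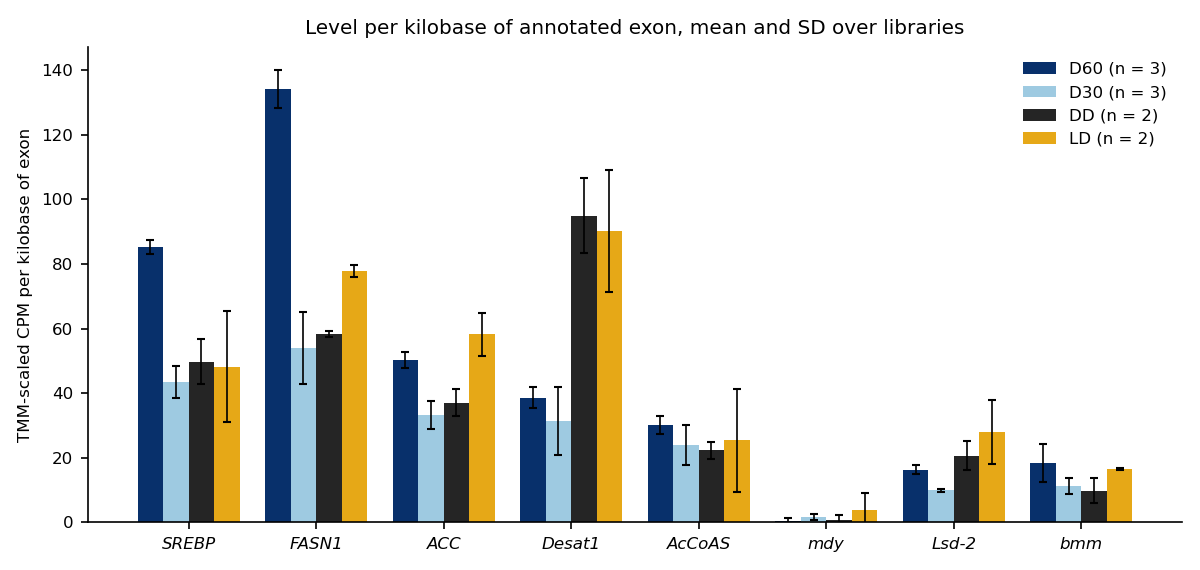
Mean level of the 8 genes in TMM-scaled CPM per kilobase of annotated exon, with bars from left to right for D60, D30, DD and LD and error bars of 1 SD over libraries (n = 3 for D60 and D30, n = 2 for DD and LD). At D60 *FASN1* stood at 134 CPM per kilobase and *SREBP* at 85.2, while *Desat1* had the highest bar in DD and LD at 94.9 and 90.3.

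D40 against D30 is the contrast on which the list was proposed, and its values describe these libraries only. The log2 fold change was 1.00 ± 0.18 (SE) for *FASN1* and 0.68 ± 0.15 for *SREBP*. It was 0.63 for *ACC*, 0.63 for *Desat1*, 0.55 for *Lsd-2*, 0.51 for *AcCoAS* and 0.45 for *bmm*. In *SREBP*, *FASN1* and *ACC* every D40 library lay above every D30 library, and in the other 4 the ranges overlapped. Without D30 replicate 1, the values for *FASN1* and *Desat1* were 1.20 and 0.92.

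At D60, 4 of the 7 lipid genes tested were higher than at D30, and none was lower. In this comparison 23.6% of all 4068 genes tested were called in either direction. The genes that rose were the transcription factor gene *SREBP*, the synthesis genes *FASN1* and *ACC*, and the droplet coat gene *Lsd-2*. The median log2 fold change of the 7 was 0.71, beside -0.01 over all genes tested. Since the D30 libraries also entered the contrast that chose the list, this count is not independent of the choice.

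*FASN1* averaged 1173 ± 51.8 CPM at D60 and 471 ± 97.3 CPM at D30 (SD, n = 3 each), and its log2 fold change was 1.33 ± 0.14 (SE), with an edgeR adjusted p of 5.031e-05. For *SREBP* the means were 346 ± 9.0 CPM at D60 and 177 ± 19.9 CPM at D30, with a log2 fold change of 0.98 ± 0.12 and an edgeR adjusted p of 0.0001183. *ACC* averaged 457 ± 23.0 CPM at D60 and 301 ± 40.4 CPM at D30, a log2 fold change of 0.62 ± 0.12 with an edgeR adjusted p of 0.003962. In all of these genes the D60 and D30 libraries did not overlap. The D30 libraries helped to choose *FASN1* and *SREBP*, so the adjusted p-values of these genes are not independent of that choice. *Lsd-2* averaged 75.0 ± 6.35 CPM at D60 and 45.8 ± 2.37 CPM at D30, a log2 fold change of 0.73 ± 0.18 with an edgeR adjusted p of 0.01244. The call of *Lsd-2*, which had 48 to 63 counts per library at D60 and 30 to 35 at D30, was lost with DESeq2 (adjusted p = 0.07681), with all ages of the table in one fit (edgeR adjusted p = 0.05135) and without D60 replicate 2 (edgeR adjusted p = 0.06905).

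The other tested genes did not pass. The lipase gene *bmm* had a log2 fold change of 0.71 ± 0.29, *AcCoAS* of 0.35 ± 0.19 and *Desat1* of 0.32 ± 0.22 between D60 and D30, with edgeR adjusted p of 0.1064, 0.2206 and 0.3482. Without D30 replicate 1, the library in which *Desat1* and *AcCoAS* were highest at D30, 6 of the 7 genes were called, beside 34.4% of all genes, *Desat1* at 0.59 ± 0.19 (edgeR adjusted p = 0.008952) and *AcCoAS* at 0.57 ± 0.18 (edgeR adjusted p = 0.007117) among them. Without D30 replicate 3, by contrast, *Desat1* stood at 0.10 and *AcCoAS* at 0.20, and without D60 replicate 1 *bmm* stood at 0.43, none of them called. *SREBP*, *FASN1* and *ACC* kept their calls without any single library.

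Sums of markers of other cell types did not move in one direction between these ages. Those of cone and pigment cells were 216 to 244 CPM at D60 and 252 to 337 CPM at D30. Muscle markers summed to 47.1 to 55.1 CPM at D60 and to 57.4 to 114 CPM at D30. The D60 and D30 ranges of hemocyte markers overlapped, as did those of R7 and R8 markers. The 8 glial markers summed to 510 to 563 CPM at D60 and to 225 to 254 CPM at D30, and all of them had counts at both ages. Most of the D60 sum was *Eaat1*, the glial glutamate transporter gene, at 327 CPM, against 43.8 CPM at D30, where *nrv2* was higher at 104 CPM. *nrv2*, *Gat* and *alrm* were also higher at D60, at 120, 22.4 and 7.80 CPM against 104, 12.6 and 3.93 CPM at D30. The glial transcription factor gene *repo* stood at 7.0 CPM at D60 and 8.02 CPM at D30. *Gs2*, *moody* and *wrapper* were likewise lower at D60, at 40.3, 13.2 and 0.892 CPM against 47.9, 16.1 and 1.44 CPM at D30. Of 11 markers of fat body and oenocytes, tissues that make and store lipid, 9 had counts at D60 and 7 at D30. They summed to 727 to 803 CPM at D60 and to 371 to 888 CPM at D30. The D30 value of 888 CPM was that of replicate 1, and the other D30 libraries had 408 and 371 CPM. Most of the sum was *apolpp*, at a mean of 628 CPM at D60 and 483 CPM at D30, and *Apoltp*, at 108 CPM at D60 and 49.6 CPM at D30. *fon* stood at 18.2 CPM at D60 and 4.57 CPM at D30, *Cyp4g1* at 7.30 CPM at D60 and 1.898 CPM at D30, and *Lsp2* at 1.82 CPM at D60 and 11.2 CPM at D30. *Fbp1* was at 0 in every library of both ages, *Fbp2*, *Yp1* and *Yp2* in those of D30 and *to* in those of D60. The part of these cells in the change of the lipid genes was not tested.

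**Figure D3:**
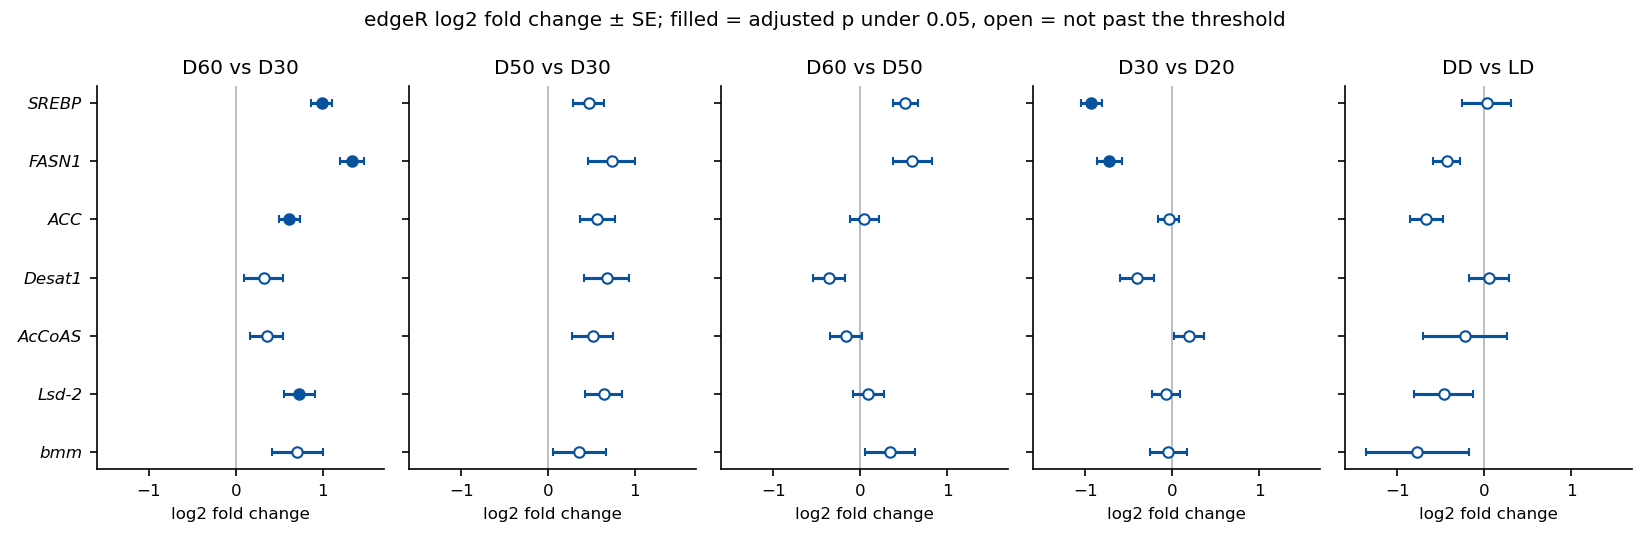
Log2 fold change with its standard error for the 7 lipid genes that passed the filter between ages (*mdy* is left out), in 5 comparisons from left to right, with filled points for an edgeR adjusted p under 0.05. The filled points lie right of 0 in D60 against D30 (0.62 to 1.33) and left of 0 in D30 against D20 (-0.93 and -0.72), and the other 3 panels hold only open points.

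Later ages were also compared without the D30 libraries. Between D60 and D50, which share no library with the contrast behind the list, none of the 7 genes was called by edgeR, where 3.51% of 4297 genes were. At an unadjusted p under 0.05, which 16.1% of all genes reached, there were 2 of them, *SREBP* with a log2 fold change of 0.52 ± 0.14 (edgeR adjusted p = 0.06944) and *FASN1* with 0.60 ± 0.22 (edgeR adjusted p = 0.1798). DESeq2 called 0 of the 7, beside 3.21% of all genes. Every D60 library was above every D50 library in both genes, which only describes these libraries, as the share over all genes was not counted. Without D50 replicate 1, both were called, *SREBP* at 0.67 (edgeR adjusted p = 0.001654) and *FASN1* at 0.93 (edgeR adjusted p = 0.0003926), where 7.25% of all genes were called. Without D50 replicate 3, neither was called, and *FASN1* stood at 0.34 (edgeR adjusted p = 0.1449) and *SREBP* at 0.44 (edgeR adjusted p = 0.0736). *Desat1* had a log2 fold change of -0.35 ± 0.18 between D60 and D50, the largest negative value of the 7.

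Between D50 and D30, none of the 7 genes was called by edgeR either, where 1.36% of 4179 genes were, and DESeq2 called 0, beside 1.89% of all genes. All 7 fold changes were positive, from 0.36 ± 0.30 for *bmm* to 0.73 ± 0.27 for *FASN1* on the log2 scale, and 5 of the genes had an unadjusted p under 0.05, as 14.7% of all genes did. Single libraries carried part of these values. Without D50 replicate 1, *FASN1* stood at 0.40, *ACC* at 0.36, *AcCoAS* at 0.33 and *SREBP* at 0.31, and *bmm* stood at 0.23 without D50 replicate 2 or D30 replicate 1. *SREBP* stood at 0.47 ± 0.18 and *Lsd-2* at 0.64 ± 0.21, and in these genes all D50 libraries were above all D30 libraries. The share of all genes that separated likewise was not counted, so this only describes these libraries. The D50 and D30 ranges of *FASN1* overlapped through D50 replicate 3.

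Over the 12 libraries of D30 to D60, *FASN1* had a slope on age of 0.36 ± 0.09 on the log2 scale per 10 days, and *SREBP* one of 0.26 ± 0.06. All D30 and D40 libraries enter the slope and chose exactly these genes, so their slopes are a description, with no call or p-value given. Among the 7 genes tested, none of the others was called, where 18.9% of 4745 genes were. The slope was 0.21 ± 0.08 for *Lsd-2* (edgeR adjusted p = 0.06189), 0.17 ± 0.07 for *ACC* (0.088) and 0.19 ± 0.11 for *bmm* (0.2367). *Desat1* and *AcCoAS* had the smallest slopes, 0.09 each. The means did not follow a straight line. In *SREBP* and *FASN1* the mean of D50 lay below that of D40, and in *Desat1* and *AcCoAS* the mean of D60 lay below those of D40 and D50.

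D30 against D20 asks what happened earlier in life, but these ages lie in separate tables whose depths differ, and an effect of age cannot be told apart from one of the table. After joining the tables, 2 of the 7 genes were called, both lower at D30, where 21.2% of 6380 genes were called. *SREBP* had a log2 fold change of -0.93 ± 0.12 (edgeR adjusted p = 9.375e-05) and *FASN1* of -0.72 ± 0.14 (edgeR adjusted p = 0.002695). The same D30 libraries stand on the other side of the comparison of D60 with D30, so a low D30 level enters both. These libraries also helped to choose *SREBP* and *FASN1*, so the adjusted p-values of these genes are not independent of that choice. *ACC*, *Lsd-2* and *bmm* had values of -0.04 ± 0.12, -0.07 ± 0.16 and -0.04 ± 0.21. *Desat1* stood at -0.40 ± 0.19 (edgeR adjusted p = 0.1676), and at -0.71 with a call without D30 replicate 1 (edgeR adjusted p = 0.003822).

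Constant darkness was compared with the light:dark cycle in 2 libraries each. None of the 8 genes was called by edgeR, where 0.025% of 8003 genes were called, and 2 of the 8 had an unadjusted p under 0.05, as 8.43% of all genes did. *ACC* stood at 309 and 363 CPM in DD and at 484 and 571 CPM in LD, a log2 fold change of -0.67 ± 0.19 (edgeR adjusted p = 0.3403). *FASN1* stood at 504 and 515 CPM in DD and at 691 and 669 CPM in LD, a log2 fold change of -0.43 ± 0.15 (edgeR adjusted p = 0.4782). For both of these synthesis genes, and for *bmm* at -0.77 ± 0.59, the DD libraries were below the LD libraries. With 2 libraries on each side such a separation arises easily without any difference, and its share over all genes was not counted. DESeq2 called 12.2% of all genes in this comparison, *ACC* and *FASN1* among them, with adjusted p of 0.002112 and 0.002163. Without LD replicate 1, edgeR called 6.35% of all genes and among them *ACC* at -0.81 (adjusted p = 0.01288), the lone LD library then being assumed to vary as the DD libraries do.

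The remaining genes gave no call under either tool in this comparison. *Lsd-2* had a log2 fold change of -0.47 ± 0.34, *AcCoAS* of -0.22 ± 0.48, *Desat1* of 0.05 ± 0.23 and *SREBP* of 0.03 ± 0.28. The fold change of *mdy*, -2.10 ± 3.01, came from 1 library of each condition. Scaling by library size alone moved the median of all genes to -0.21, against 0.06 with TMM, and turned *SREBP* and *Desat1* to -0.23 and -0.22, with *ACC* at -0.93 and *FASN1* at -0.70. Markers of fat body and oenocytes summed to 1089 and 1137 CPM in DD and to 1536 and 2333 CPM in LD, with 10 of 11 detected in each condition, and those of cone and pigment cells to 1375 to 1562 CPM in DD and to 1749 to 2326 CPM in LD. Muscle markers summed to 23.1 to 27.0 CPM in DD and to 76.9 to 154 CPM in LD. Hemocyte markers summed to 243 to 254 CPM in DD and to 388 to 391 CPM in LD, and glial markers to 460 to 464 and 470 to 796 CPM. Higher in DD were R7 and R8 markers, at 4630 to 5843 CPM against 3304 to 3382.5 CPM in LD. Outer photoreceptor markers summed to 151960 to 162360 CPM in DD and to 83822 to 88243 CPM in LD. The part of these differences in the values of the lipid genes was not tested.

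*FASN1* and *ACC* act in succession, and their counts within a library do not depend on its scaling. The ratio of *FASN1* to *ACC* counts was 2.50 ± 0.0598 at D20. It stood at 1.56 ± 0.150 in the D30 libraries, 2.02 ± 0.211 in those of D40, 1.71 ± 0.254 in those of D50 and 2.57 ± 0.186 in those of D60 (SD, n = 3 each). The ratio was thus higher at D60 and D20, which did not differ beyond their spread, than in any library of D30, D40 or D50. D20 lies in the other table, so for it an effect of age cannot be told apart from one of the table. D30 had the lowest mean of these ages, but its range overlapped that of D50. In DD the ratio was 1.52 ± 0.149 and in LD 1.30 ± 0.182 (SD, n = 2 each), and these ranges overlapped. The ratio of *FASN1* to *Desat1* counts was 12.2 ± 0.690 at D60 and 6.21 ± 1.07 at D30 (SD, n = 3 each). Both ratios are descriptions with no test, because *FASN1* was part of the choice.

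**Figure D4:**
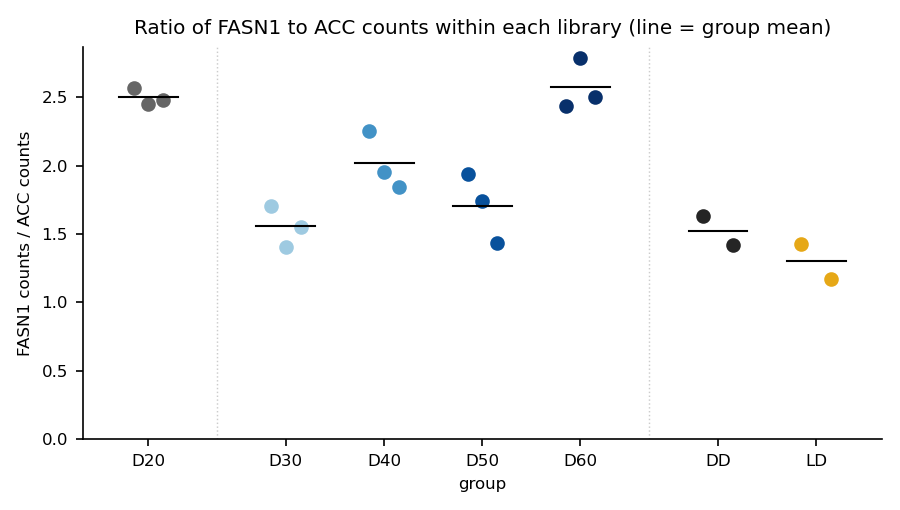
Ratio of *FASN1* counts to *ACC* counts in each library, for D20, D30, D40, D50, D60, DD and LD from left to right, with a line at each group mean. The mean was 2.57 at D60 and 1.56 at D30, with 2.50 at D20, 1.52 in DD and 1.30 in LD. D20, DD and LD lie in a separate table from D30 to D60.

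The profile of a gene over the 12 libraries of D30 to D60 was compared with all others by the root mean square difference of their centred log2 CPM, a description across libraries of one table. The D30 and D40 libraries by which *FASN1* and *SREBP* were chosen are among them, so the likeness of these genes to each other is partly set by the choice. The gene nearest to *FASN1* was *Acsl*, a long-chain acyl-CoA synthetase gene that activates fatty acids, at 0.18, followed by *Mon1* and *RpL27A* at 0.27 each. The median over 4744 genes was 0.67. *SREBP* and *ACC* ranked 9 and 10 in likeness to *FASN1*. For *SREBP* the nearest genes were *Nt5b* at 0.17, the phototransduction channel gene *trp* at 0.20 and the RNA polymerase III subunit gene *Polr3B* at 0.20. The median was 0.51, and *ACC* ranked 43 and *FASN1* 160. *Desat1* and *AcCoAS* were each other's nearest gene among the 4744, at 0.17. The other lipid genes ranked from 225 to 1481 in likeness to *SREBP* and from 255 to 949 in likeness to *FASN1*.

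Around these 8 genes, 62 further genes of lipid metabolism from 4 lists were measured in the tables. At D60 against D30, where 23.6% of all genes were called, 30 of them were tested, 7 were higher and 4 were lower, and their median log2 fold change was 0.23. With the 8 genes included, 4 of the 11 tested genes of fatty acid synthesis and activation were higher and 1 was lower. Of 10 tested genes of glycerolipid synthesis and lipid droplets, 3 were higher and 1 was lower. Lipolysis and fatty acid oxidation had 1 higher and 2 lower genes of 6, and lipid carriers, uptake and sterols had 3 higher and 0 lower genes of 10. With so few genes in a list, these counts set no list apart from the share over all genes.

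The largest increases of all lipid genes were those of the lipophorin receptor genes, whose products take up lipid carried by lipoproteins. *LpR2* had 79.0, 74.5 and 79.4 CPM at D60 and 15.7, 35.8 and 23.6 CPM at D30, a log2 fold change of 1.62 ± 0.25 (edgeR adjusted p = 0.0008087). *LpR1* had 53.6, 64.1 and 61.6 CPM at D60 and 9.40, 20.5 and 29.5 CPM at D30, a log2 fold change of 1.60 ± 0.31 (edgeR adjusted p = 0.002965). No D60 library of either gene overlapped a D30 library. Counts were low at D30, with 10 to 28 per library for *LpR2* and 6 to 20 for *LpR1*. They are neighbouring paralogs on chromosome 3R, and how reads shared between them were counted was not given in the sources used here. The next largest increase was that of *FASN1*.

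*Acsl*, the gene nearest to *FASN1* in profile, had 392, 370 and 312 CPM at D60 and 191, 172 and 152 CPM at D30, a log2 fold change of 1.08 ± 0.14 (edgeR adjusted p = 0.0001827). *Pcyt1* and *bbc*, which act in phosphatidylcholine synthesis, were higher by 0.84 and 0.70 on the log2 scale. *Apoltp*, which encodes the apolipoprotein of a lipid transfer particle and is also one of the fat body markers, was higher by 1.15. The coactivator gene *srl*, the fly counterpart of PGC-1, was higher by 1.07, and its call was lost with DESeq2, with the replicate number as a block and without any of 5 of the 6 libraries taken singly. *Pcyt1* shares exon sequence with *Pcyt2* and an antisense gene.

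The 3 largest decreases were in *whd*, *S2P* and *Hnf4*. *whd*, the carnitine palmitoyltransferase gene that admits fatty acids to mitochondrial oxidation, had 43.2, 40.5 and 50.7 CPM at D60 and 135, 70.4 and 83.9 CPM at D30, a log2 fold change of -1.07 ± 0.26 (edgeR adjusted p = 0.01125). *S2P*, which encodes the site-2 protease that releases SREBP from the membrane, had 14.9, 15.7 and 17.8 CPM at D60 and 39.2, 28.2 and 26.5 CPM at D30. Its log2 fold change was -0.92 ± 0.30 (edgeR adjusted p = 0.04352), so the protease gene was lower where *SREBP* was higher. *Hnf4*, a nuclear receptor gene of fatty acid oxidation, had 50.7, 49.7 and 52.0 CPM at D60 and 84.6, 96.0 and 81.0 CPM at D30, a log2 fold change of -0.76 ± 0.17 (edgeR adjusted p = 0.00671). *Agpat1*, an acyltransferase gene of glycerolipid synthesis, was the fourth lower gene, at -0.75.

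The calls of *S2P* and *Agpat1* rested close to the threshold. Both were lost with DESeq2, at adjusted p of 0.1751 and 0.167. Library size alone (edgeR adjusted p = 0.05163 and 0.05947) and the absence of a filter (edgeR adjusted p = 0.05943 and 0.05343) ended both calls as well. *S2P* was lost when any 1 of the 6 libraries was left out, and *Agpat1* in 5 of these 6 fits. *whd* lost its call without D60 replicate 1 (edgeR adjusted p = 0.05536) or replicate 2 (0.05981). All 4 of these lower genes share exon sequence with a gene on the opposite strand, so their counts are uncertain.

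**Figure D5:**
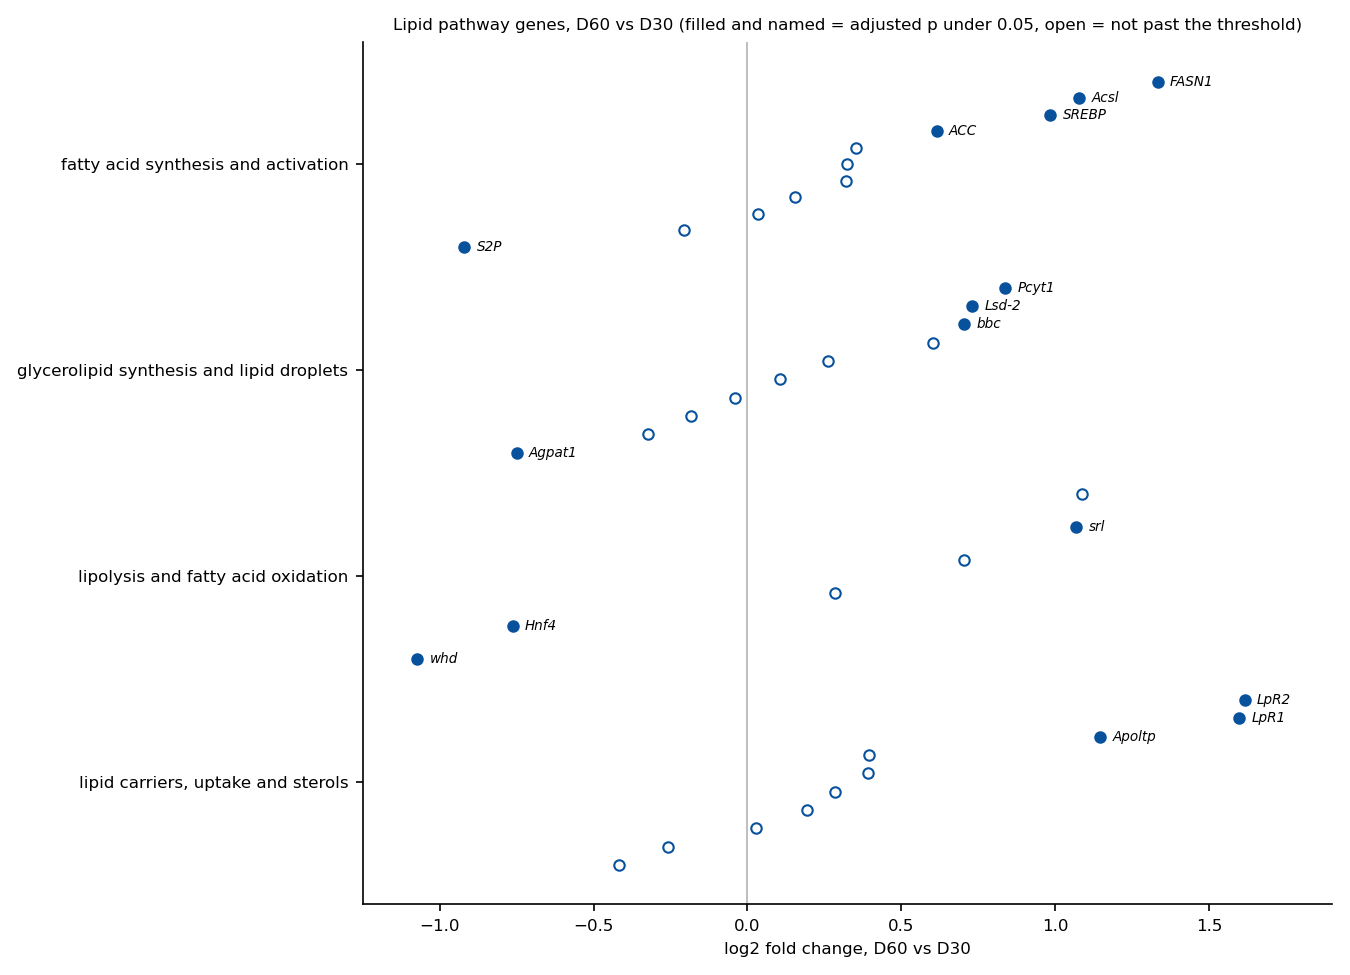
Log2 fold change of each tested lipid gene, D60 against D30, in 4 lists of lipid metabolism, 1 point per gene, with called genes (edgeR adjusted p under 0.05) filled and named. Called genes run from -1.07 (*whd*) to 1.62 (*LpR2*), with 11 right of 0 and 4 left of 0.

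For D50 against D30 edgeR called 0 of 30 further genes, beside 1.36% of all genes, and for D60 against D50 0 of 31, beside 3.51%. For DD against LD it called 0 of 55, beside 0.025%. At an unadjusted p under 0.05 there were 9, 7 and 7 of them in that order. Of all genes, 14.7%, 16.1% and 8.43% reached it. With the 8 genes included, DESeq2 called 1 of 37 lipid genes (1.89% of all genes) for D50 against D30 (*LpR1*, log2 fold change 1.59, adjusted p = 0.01869), 0 of 38 (3.21% of all genes) for D60 against D50 and 8 of 63 for DD against LD, where its share of all genes was 12.2%. Single libraries decided some of these counts. Of all lipid genes, edgeR called 9 of 66 without LD replicate 1, where 6.35% of all genes were called, and 9 of 62 without LD replicate 2, where 25.5% were. For D60 against D50 it called 5 of 40 without D50 replicate 1, beside 7.25% of all genes, and 1 of 40 without D50 replicate 3, beside 6.51%. For D50 against D30 without D30 replicate 1 it called 2 of 38, beside 1.73%. The age slope was called for 11 of 34 further genes, 7 upward and 4 downward, beside 18.9% of all genes. Without D60 replicate 1 it was called for 7 of all 45 lipid genes tested then, beside 12.6%. Between D30 and D20, 9 of 48 further genes were called, 5 higher and 4 lower at D30, beside 21.2% of all genes. The same limit on the tables holds there.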

How the data were processed

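The authors deposited raw counts per gene, with no normalization, in 2 tables. D30 to D60 (12 libraries) share a table, and D20, LD and DD (7 libraries) the other. Each column matched one labelled sample. The submitters' processing notes name Trimmomatic, STAR, SAMtools and DESeq2, with the dm6 and BDGP6 builds. Strand setting, annotation release and treatment of PCR duplicates are not given in the sources used here. Counts of genes that overlap are therefore uncertain, and PCR copies of a molecule may each have been counted.

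Of 13929 genes, 13866 were matched by identifier to the Ensembl annotation of BDGP6 (release 115), which gave positions and the union length of exons. Counts were tested in edgeR 4.0.16 (R 4.3.3) by its quasi-likelihood F-test, with TMM factors and the default expression filter (minimum count 10, minimum total 15) on the groups of each comparison, two-sided, with Benjamini-Hochberg adjustment over all genes tested. Standard errors were obtained from the log2 fold change and the F statistic, as their ratio after taking the root of F. CPM used TMM factors within each table, and likeness used log2 CPM with a prior count of 2. Each library was a separate pool of flies. The labels do not say from which cages the pools came, so p-values measure the spread between these pools. The procedures were tested on simulated counts.

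The genes and lists were chosen with earlier results of these data known. All 8 genes are described. Of 72 further or shared symbols in 4 lipid lists, 70 were in the tables and *FASN3* and *mcd* were not used. The lists named the 3 largest increases and the 3 largest decreases among called genes for D60 against D30, and the remaining called genes were named after their values were seen. The 3 nearest genes in profile were named for *FASN1* and *SREBP*, and those of *Desat1* and *AcCoAS* were chosen after their values were seen. Sequences were not used here. Alternatives were DESeq2 1.42.0, library size alone, RLE factors, no filter, a minimum of 10 counts in every library, a fit sharing further groups, the replicate number as a block, and leaving out each library in turn. For D40 against D30, same-numbered libraries deviated from their group means together (r of 0.13 to 0.28 across genes for the 3 pairs), a pairing that rests on the numbers in the sample titles, and with the block *FASN1* had a log2 fold change of 1.01.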

Additional observations from a re-analysis of the deposited data

How the results depend on the processing

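No alternative turned the direction of a called lipid gene. The number of the 8 genes called stayed within 1.5 times the main number under the remaining alternatives, apart from those given here. With no filter on low counts, 1 gene (*FASN1*, edgeR adjusted p = 0.01076) was called for D50 against D30, beside 2.01% of all genes. For D60 against D50 there were 2 (*SREBP* and *FASN1*), beside 2.06%. For DD against LD, DESeq2 called 2 genes, beside 12.2%, and the replicate block 1 (*ACC*, edgeR adjusted p = 0.03655), beside 4.07%. Leaving out each library in turn gave 3 to 6 called genes for D60 against D30, where 14.3% to 34.4% of all genes were called. It gave 0 to 2 for D60 against D50 (1.36% to 7.25% of all genes) and 2 to 3 for D30 against D20 (11.8% to 24.6%). Leaving out a DD or LD library leaves 1 in its group, and no count of the 8 genes is given for it. The slope of *Lsd-2* was called without D40 replicate 2 or 3. The cause of these changes was not tested.

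Same-numbered libraries did not deviate together outside D40 against D30, with mean correlations from -0.0912 (D60 against D50) to 0.0176 (D50 against D30). With the replicate number as a block, 4 of the 8 genes were called for D60 against D30, beside 22.5% of all genes, and 2 for D30 against D20, beside 18.1%. For D50 against D30 and D60 against D50 the block gave 0, beside 1.27% and 2.89% of all genes. Apart from *ACC* in DD against LD, the block changed no call of the 8 genes. Over all 37 lipid genes tested for D60 against D30, 12 were called with the block and 15 without it, *S2P* (edgeR adjusted p = 0.0754), *Agpat1* (0.07192) and *srl* (0.08218) being lost.

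Counts over all genes moved more. For D60 against D30 the 960 calls became 612 to 1492 without 1 library. For D50 against D30 the 57 calls became 233 with no filter, 151 with all ages in one fit, and 21 to 78 without 1 library. The 151 calls of D60 against D50 became 240, 83, and 62 to 326 in the same order, and the 1355 of D30 against D20 became 894 to 1769 without 1 library. For DD against LD the 2 calls became 974 with DESeq2, 326 with the block, 279 with no filter, 279 with D20 in the fit, 9 with library size alone (33.3% of them higher, against 50% of the 2), 109 with a minimum of 10 counts per library, and 44 to 2241 without 1 library. Depth limits *mdy*, at 0 to 6 counts per library from D30 to D60, and *bmm*, at 14 to 41. It likewise limits *LpR1* (6 to 20 counts), *LpR2* (10 to 28) and *srl* (6 in each library) at D30, and *S2P* (10 to 13) at D60.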
